A study of Mus musculus with 800 samples.

Results

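The 7 genes described here encode receptors and enzymes of cannabinoid and opioid signalling, and were taken by symbol from the 32285 genes of the count table. They are Cnr1, Dagla, Mgll, Faah, Oprm1, Oprd1 and Oprk1, and each had 1 row in the table. The nuclei came from C57Bl/6J mice that had received an adeno-associated virus of the PHP.eB capsid in young adulthood at 5e11 vg per mouse (vg, vector genomes). The virus carried a histone H2B-SYFP2 reporter under 1 of 20 enhancers or promoters: hSyn1, CMV, DLX2.0, hI56i or 1 of 16 enhancers known by an AiE code. YFP+ nuclei were sorted 3 to 4 weeks later, and 1 SMART-Seq v4 library of polyA RNA was made from each, at a stated depth of about 0.5 M read pairs. All nuclei are labelled as anterior lateral motor cortex, and all share the strain, the capsid, the dose and the sort, so no untreated nuclei were set against them. Each of the 20 vectors has 40 labelled nuclei, 800 in all, and the 800 library names were all different.

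Endocannabinoids are lipid messengers that a neuron makes on demand and that act back on the presynaptic terminal. Dagla encodes the main neuronal synthase of 2-arachidonoylglycerol, and Cnr1 encodes the CB1 receptor, which couples to Gi/o proteins and lowers transmitter release. Mgll encodes the main hydrolase of 2-arachidonoylglycerol, and Faah the hydrolase of anandamide. Oprm1, Oprd1 and Oprk1 encode the mu, delta and kappa opioid receptors, which couple to the same G proteins and bind peptides cut from the products of Penk (enkephalins), Pdyn (dynorphins) and Pomc (beta-endorphin). In the striatum, enkephalin marks projection neurons with the dopamine receptor gene Drd2, and dynorphin those with Drd1.

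Of the 800 nuclei, 698 had at least 1000 genes with a read and were clustered without the 7 genes and 46 other genes of the same pathways. By marker genes, 161 nuclei were like striatal projection neurons (SPN-like), 273 like GABAergic interneurons, 108 like glutamatergic neurons, 106 like astrocytes and 50 like oligodendrocytes. The SPN-like nuclei go against the cortical label: Rgs9, a regulator of G protein signalling enriched in the striatum, had 1274 CPM in them, against 22.4 CPM in GABAergic-like and 19.1 CPM in glutamatergic-like nuclei. The study also sorted striatum and visual cortex, and no label here separates the regions, so region and class cannot be told apart. SPN-like nuclei came from 15 vectors, and from library series S40326 (113 nuclei), S40324 (41) and S40325 (7), the series being the batch that the library names give. Median reads per nucleus were 241227 in SPN-like, 254316 in GABAergic-like, 246497 in glutamatergic-like, 300958.5 in astrocyte-like nuclei, and oligodendrocyte-like nuclei had 297629. The 8 oligodendrocyte markers summed to 1353.2 CPM in SPN-like nuclei, against 205.7 CPM in GABAergic-like and 160.3 CPM in glutamatergic-like nuclei, with Mog, a myelin gene, at 0 in SPN-like nuclei. The 10 astrocyte markers summed to 415.4 CPM in SPN-like, 147.2 CPM in GABAergic-like and 520.6 CPM in glutamatergic-like nuclei.

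Levels are given in CPM, the reads of a gene per 1000000 reads of all genes in the same nuclei. Because the labels name no animal, the reads of a class were summed within each vector that had at least 3 of its nuclei, and the spread is over these sums. The p-values therefore measure the spread between sums, and nothing says that the sums stem from different animals. A call means an adjusted p below 0.05 in edgeR's quasi-likelihood test with the vector as a block and Benjamini-Hochberg adjustment over all genes tested. Intervals on pooled reads and shares cover counting error only, since the libraries have no molecular identifiers.

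In the mm10 build with GENCODE M21 annotation, the 7 genes are protein-coding. Cnr1 (ENSMUSG00000044288) lies at chr4:33924593-33948831 on the plus strand, Faah (ENSMUSG00000034171) at chr4:115967145-116017926 and Oprd1 (ENSMUSG00000050511) at chr4:132110726-132144486, both on the minus strand. Dagla (ENSMUSG00000035735) lies at chr19:10245265-10304877 on the minus strand and Mgll (ENSMUSG00000033174) at chr6:88724412-88828360 on the plus strand. Oprm1 (ENSMUSG00000000766) lies at chr10:6758506-7038198 and Oprk1 (ENSMUSG00000025905) at chr1:5588466-5606131, both on the plus strand. Dagla and Mgll overlap an antisense gene, and Oprm1 overlaps Gm10945 and Ipcef1 on the other strand. The library kit does not mark strand, so reads of these 3 genes in a stretch shared with a partner cannot be assigned by strand. The overlaps are of whole gene spans. Overlap of exons was not examined, and the counting rule is not given.

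The promoters of Cnr1 and Faah are shown because these 2 genes were called in opposite directions in both SPN-like comparisons. The sequences are those of RefSeq on GRCm38.p6, 250 bases before to 50 after a start site, each read 5′ to 3′ on the strand of its gene. RefSeq gives several windows for Cnr1, and the window nearest to the GENCODE gene start is printed. Capitals mark the motifs searched on both strands, GGGCGG (GC box), TGACGTCA (CRE) and CACGTG (E-box).
Cnr1, chr4:33924394-33924693, plus strand: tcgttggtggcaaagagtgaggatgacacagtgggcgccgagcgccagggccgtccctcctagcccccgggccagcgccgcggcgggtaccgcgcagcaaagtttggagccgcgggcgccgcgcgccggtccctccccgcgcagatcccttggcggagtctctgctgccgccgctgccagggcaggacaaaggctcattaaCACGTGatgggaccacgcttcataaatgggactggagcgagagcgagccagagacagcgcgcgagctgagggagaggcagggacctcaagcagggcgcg
Faah, chr4:116017875-116018174, minus strand: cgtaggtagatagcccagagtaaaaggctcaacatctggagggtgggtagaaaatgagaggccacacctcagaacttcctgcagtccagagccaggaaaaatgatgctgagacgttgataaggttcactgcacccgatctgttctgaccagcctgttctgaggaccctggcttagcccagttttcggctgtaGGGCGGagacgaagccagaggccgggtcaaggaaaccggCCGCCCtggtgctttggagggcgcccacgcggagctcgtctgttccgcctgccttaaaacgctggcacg
The Cnr1 window was 69.0% G and C and held 1 E-box and no GC box, whereas the Faah window was 57.7% G and C and held 2 GC boxes and no E-box. Neither held a CRE. Over 32851 promoter windows of the same length, 35.7% held a GC box, 7.2% an E-box and 1.8% a CRE, and the median was 52.7% G and C.

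Cnr1 was the most strongly read of the 7 genes in SPN-like nuclei, and its mean level there was above that of both other neuronal classes. It averaged 577 ± 276 CPM in SPN-like (SD, n = 14 vectors), 252 ± 219 CPM in GABAergic-like (n = 18), 99.9 ± 113 CPM in glutamatergic-like (n = 12) and 46.6 ± 63.3 CPM in astrocyte-like sums (n = 9), and it was at 0 in all 7 oligodendrocyte-like sums. Neighbours in this order overlapped down to astrocyte-like sums: GABAergic-like sums ran over 7.15 to 837 CPM with a median of 212 CPM, glutamatergic-like sums over 0.836 to 349 CPM with a median of 44.8 CPM, and astrocyte-like sums over 0 to 163 CPM with a median of 21.05 CPM. The SPN-like sums ran over 212 to 1054 CPM with a median of 613 CPM, so no SPN-like sum was near 0. A Cnr1 read was found in 132 of 161 SPN-like nuclei (82.0%, Clopper-Pearson 95% interval 75.2 to 87.6%), 38.5% of GABAergic-like, 32.4% of glutamatergic-like and 11.3% of astrocyte-like nuclei. None of 50 oligodendrocyte-like nuclei had one, which allows a share of up to 6.0% when the limit is set at 3 nuclei of the total (the upper Clopper-Pearson bound is 7.11%). Their median depth was above that of the neurons, but fewer genes were read in them. The median was 1139.5 genes in oligodendrocyte-like and 1454 in astrocyte-like nuclei. It was 2652 in SPN-like, 3128 in GABAergic-like and 3264.5 in glutamatergic-like nuclei. After thinning each nucleus to 150000 reads the shares were 83.2% of 149 SPN-like, 38.8% of 260 GABAergic-like, 31.7% of 101 glutamatergic-like and 11.5% of 104 astrocyte-like nuclei. Among SPN-like nuclei with a read, Cnr1 had a median of 476 CPM and quartiles of 154 and 999 CPM. Per kilobase of exon, Cnr1 had 91.6 CPM in SPN-like nuclei, against 12.6 CPM for Mgll, 11.4 CPM for Oprk1, 4.59 CPM for Dagla, 1.56 CPM for Faah, 0.302 CPM for Oprd1 and 0.211 CPM for Oprm1.

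**Figure D1:**
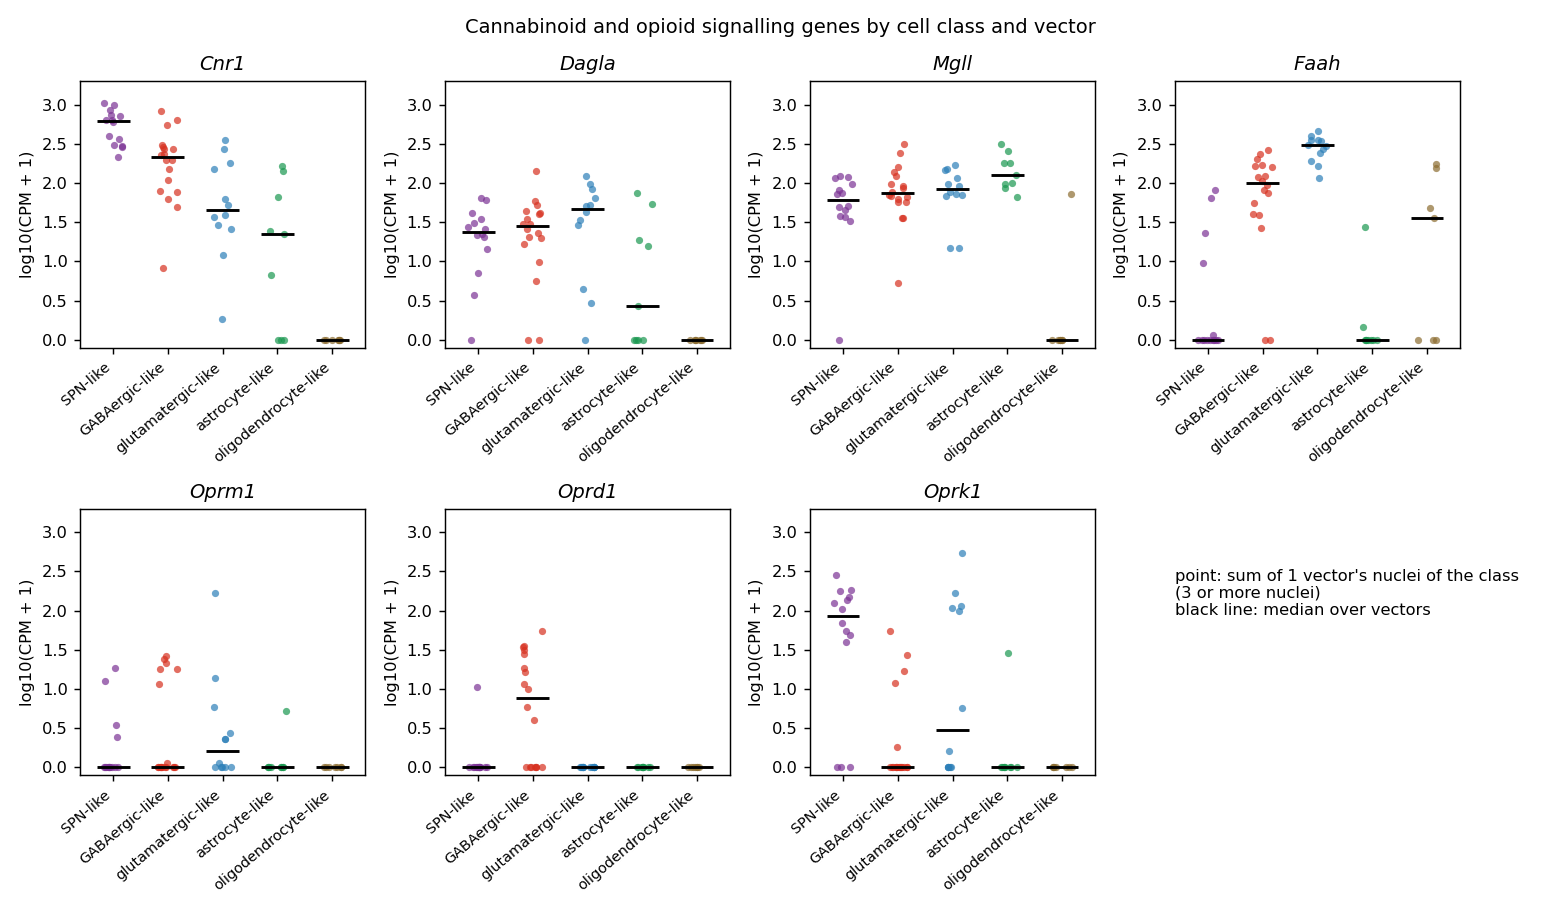
Summed level of each of the 7 genes by cell class, on the log10(CPM + 1) scale; each point is the sum over 1 vector's nuclei of the class and the black line is the median over vectors. Cnr1 is highest in SPN-like sums (median 613 CPM), Faah in glutamatergic-like sums (median 301 CPM), and Oprd1 points above 0 lie in GABAergic-like sums apart from 1 SPN-like sum.

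Dagla, the synthase, was low in all 3 neuronal classes. Its sums averaged 25.9 ± 19.2 CPM in SPN-like (SD, n = 14 vectors), 32.3 ± 32.2 CPM in GABAergic-like (n = 18) and 47.6 ± 38.3 CPM in glutamatergic-like nuclei (n = 12), differences within the spread between vectors. Glial sums were lower, at 17.9 ± 27.1 CPM in astrocyte-like sums (n = 9), 4 of them at 0, and at 0 in all 7 oligodendrocyte-like sums. Reads were found in 21.7% of SPN-like, 23.8% of GABAergic-like, 35.2% of glutamatergic-like and 7.55% of astrocyte-like nuclei.

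Mgll and Faah, the 2 hydrolases, were spread over the classes in unlike ways. Mgll was the member with the highest astrocyte-like level, 155 ± 84.9 CPM (SD, n = 9 vectors) over 64.4 to 315 CPM, with a read in 53 of 106 nuclei (50.0%, 40.1 to 59.9%). In neurons it averaged 65.5 ± 36.6 CPM in SPN-like (n = 14), 98.1 ± 75.3 CPM in GABAergic-like (n = 18) and 89.3 ± 49.1 CPM in glutamatergic-like sums (n = 12). Per kilobase of exon it had 38.8 CPM in astrocyte-like nuclei, above Cnr1 at 5.8 CPM in the same nuclei. Among 50 oligodendrocyte-like nuclei 1 had an Mgll read.

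Faah instead was highest in glutamatergic-like sums, at 289 ± 99.3 CPM over 116 to 453 CPM (SD, n = 12 vectors). It averaged 108 ± 77.8 CPM in GABAergic-like sums over 0 to 263 CPM (n = 18) and 58.7 ± 74.7 CPM in oligodendrocyte-like sums over 0 to 173 CPM (n = 7). In SPN-like sums it averaged 12.4 ± 26.1 CPM with 9 of 14 at 0, and in astrocyte-like sums 3.00 ± 8.83 CPM with 7 of 9 at 0. The order by nuclei with a read was the same at the top: 72.2% of glutamatergic-like, 35.5% of GABAergic-like, 12% of oligodendrocyte-like, 4.35% of SPN-like and 3.77% of astrocyte-like nuclei. When a nucleus had a Faah read, the median level was close over the neuronal classes, at 256 CPM in 7 SPN-like, 265 CPM in 97 GABAergic-like and 257 CPM in 78 glutamatergic-like nuclei.

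The 3 opioid receptor genes were found in few nuclei, and their reads were spread over the classes in different ways. Oprk1 averaged 97.7 ± 83.1 CPM in SPN-like sums (SD, n = 14 vectors) with 3 at 0, 5.99 ± 13.96 CPM in GABAergic-like sums with 13 of 18 at 0, and 86.1 ± 155 CPM in glutamatergic-like sums with 5 of 12 at 0. The glutamatergic-like mean rested on few sums, its median being 2.64 CPM and its highest sum 541 CPM. An Oprk1 read was found in 37 of 161 SPN-like nuclei (22.98%, 16.7 to 30.3%), 9.26% of glutamatergic-like, 2.20% of GABAergic-like and 1.89% of astrocyte-like nuclei. Thinned to 150000 reads, the shares were 21.5%, 9.90%, 1.92% and 1.92% in the same order.

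Oprd1 reads came from 23 of 273 GABAergic-like nuclei (8.42%, 5.42 to 12.4%) and 1 SPN-like nucleus, and from no glutamatergic-like, astrocyte-like or oligodendrocyte-like nucleus. By the same limit of 3 nuclei, a count of 0 allows a share of up to 2.78% of the 108 glutamatergic-like and 2.83% of the 106 astrocyte-like nuclei (upper Clopper-Pearson bounds 3.36% and 3.42%). The GABAergic-like sums ran over 0 to 54.5 CPM with a median of 7.08 CPM, and 7 of 18 were at 0. Pooled over all neuronal nuclei, Oprm1 was the least read of the 7 genes per kilobase of exon, at 0.652 CPM. By class, this held in SPN-like nuclei only. Per kilobase, Oprk1 was lower in GABAergic-like nuclei (0.716 against 0.827 CPM), and Oprd1 had no read in glutamatergic-like nuclei. Whether intronic reads were counted is not given, which limits values per kilobase of exon. Pooled Oprm1 levels were 6.65 CPM over GABAergic-like nuclei (read in 11), 6.60 CPM over glutamatergic-like nuclei (in 8) and 1.69 CPM over SPN-like nuclei (in 5). A single nucleus held 81.3% of the glutamatergic-like Oprm1 reads, so that level describes that nucleus.

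**Figure D2:**
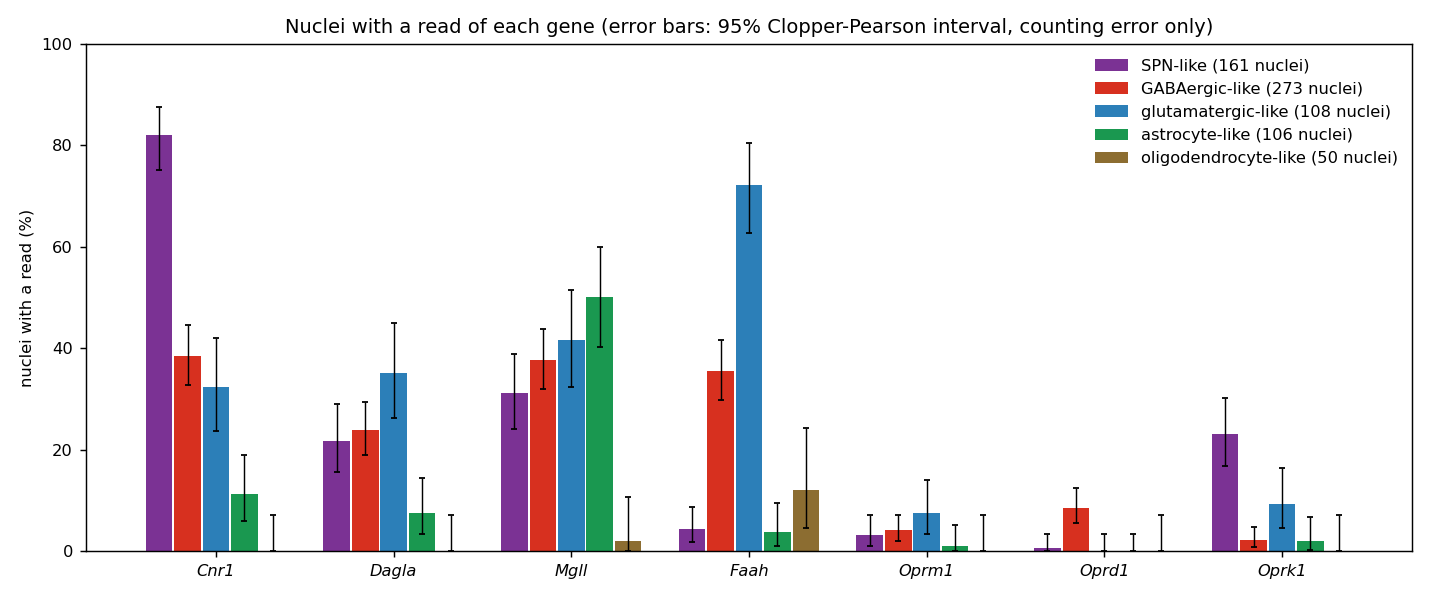
Percentage of nuclei of each class with at least 1 read of each gene; bars are shares of all nuclei of the class and error bars are Clopper-Pearson 95% intervals, which cover counting error only. Cnr1 was read in 82.0% of SPN-like nuclei, Faah in 72.2% of glutamatergic-like nuclei, Mgll in 50.0% of astrocyte-like nuclei and Oprk1 in 22.98% of SPN-like nuclei.

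SPN-like nuclei were set against GABAergic-like nuclei of the same 12 vectors. Cnr1 and Oprk1 rose and Faah fell in SPN-like nuclei, and Mgll and Dagla passed no threshold. Cnr1 averaged 594 ± 292 CPM in SPN-like sums and 198 ± 173 CPM in GABAergic-like sums, a ratio of 3.00, and was higher in 10 of 12 vectors. Its fitted log2 fold change was 1.99 (edgeR, SE 0.52, adjusted p = 0.0164).

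Oprk1 averaged 99.0 ± 81.8 CPM in SPN-like and 8.91 ± 16.5 CPM in GABAergic-like sums, a ratio of 11.1. It was higher in 10 vectors and at 0 in both classes in the other 2. The fitted log2 fold change was 6.62 (edgeR, SE 1.67, adjusted p = 0.0148), a value that depends on how sums at 0 are treated. Faah averaged 14.5 ± 27.8 CPM in SPN-like and 103 ± 82.4 CPM in GABAergic-like sums, was lower in 10 of 12 vectors, and had a log2 fold change of -6.92 (edgeR, SE 2.06, adjusted p = 0.0394). Mgll had 69.3 ± 38.2 CPM in SPN-like and 76.5 ± 45.2 CPM in GABAergic-like sums, and Dagla 28.3 ± 19.4 CPM and 22.1 ± 15.7 CPM in the same order of classes, with adjusted p of 0.955 and 0.861 by edgeR.

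The call on these genes stood at 3 of the 5 tested, where 8.53% of the 9210 genes tested were called (3.19% higher and 5.34% lower). Oprm1 and Oprd1 did not pass edgeR's filter on low counts. With no filter beyond 1 count, Oprd1 had a log2 fold change of -7.34 with an adjusted p of 0.0184 by edgeR, from sums averaging 0.797 CPM in SPN-like and 16.5 CPM in GABAergic-like nuclei. Without the vector block, the log2 fold change was 3.47 for Oprk1 (adjusted p = 0.0858) and -2.75 for Faah (adjusted p = 0.197), both by edgeR and no longer calls. The Faah call also ended on leaving out any 1 of AiE0078h, AiE0140h, AiE0475m, AiE0387m, AiE0401h, AiE0450h and AiE0447h, with adjusted p between 0.0849 and 0.0997 by edgeR, and within series S40326 alone Cnr1 had a log2 fold change of 2.07 with an adjusted p of 0.0627 by edgeR. With classes taken from a marker score, Faah had an adjusted p of 0.0704 by edgeR and Oprk1 was not tested.

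**Figure D3:**
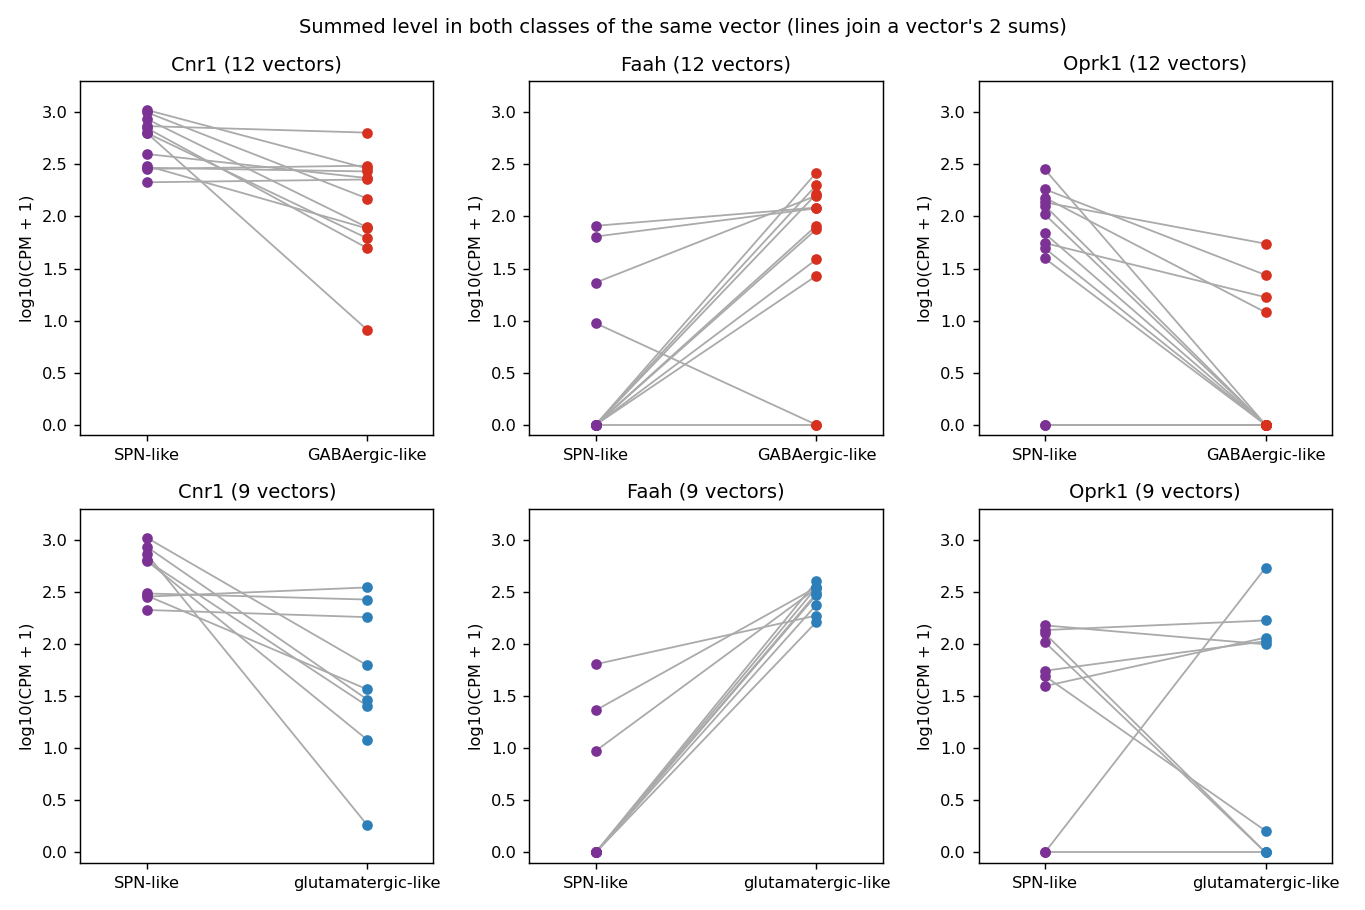
Summed levels of Cnr1, Faah and Oprk1 on the log10(CPM + 1) scale, SPN-like on the left of each panel with GABAergic-like (top row, 12 vectors) or glutamatergic-like sums (bottom row, 9 vectors) on the right; each line joins the sums of 1 vector. Faah was lower in SPN-like than in glutamatergic-like sums in 9 of 9 vectors, and Oprk1 was higher in SPN-like than in GABAergic-like sums in 10 of 12.

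Against glutamatergic-like nuclei of the same 9 vectors, SPN-like nuclei had more Cnr1 and less Faah. Cnr1 averaged 558 ± 298 CPM in SPN-like and 107 ± 128 CPM in glutamatergic-like sums, was higher in 8 of 9 vectors, and had a log2 fold change of 3.51 (edgeR, SE 0.91, adjusted p = 0.0351). Faah averaged 10.4 ± 21.1 CPM in SPN-like sums, 6 of them at 0 and the highest at 63.1 CPM, and 292 ± 80.2 CPM in glutamatergic-like sums, the lowest at 162 CPM. The Faah groups did not overlap, and the log2 fold change was -8.43 (edgeR, SE 1.43, adjusted p = 0.000978). Oprk1 did not pass the threshold, with 73.0 ± 57.5 CPM in SPN-like and 114 ± 172 CPM in glutamatergic-like sums (edgeR log2 fold change 0.97, SE 1.83, adjusted p = 0.974), and its log2 fold change was -0.54 without the vector block and -0.33 with classes from a marker score.

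Calls were made on 2 of the 5 genes tested, against 3.08% of 7595 genes tested (1.66% higher and 1.42% lower). Faah, at 0 in 6 of 9 SPN-like sums, passed the filter on low counts mainly through the glutamatergic-like sums. This comparison shares its SPN-like sums with the one before. The Cnr1 call ended on leaving out any 1 of AiE0140h, AiE0475m, AiE0401h, hI56i, AiE0450h and AiE0743m_3xC2, with adjusted p between 0.0592 and 0.116 by edgeR. In the 5 vectors of series S40326 Cnr1 had a log2 fold change of 1.48 (adjusted p = 0.828 by edgeR) and Faah of -7.26 (adjusted p = 0.142 by edgeR), so neither was called there.

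Between GABAergic-like and glutamatergic-like nuclei of 12 vectors, edgeR called none of the 4 genes tested, where 3.16% of 8943 genes tested were called. At an unadjusted p under 0.05 the count was 2, where 1031 of the 8943 genes had one. Faah averaged 122 ± 82.8 CPM in GABAergic-like and 289 ± 99.3 CPM in glutamatergic-like sums, was lower in 11 of 12 vectors, and had a log2 fold change of -1.63 (edgeR, SE 0.61, adjusted p = 0.206). Of the 4, DESeq2 called Faah alone, at an adjusted p of 0.00899, and it called 1529 of all genes tested. Cnr1 averaged 271 ± 243 CPM in GABAergic-like and 99.9 ± 113 CPM in glutamatergic-like sums (edgeR log2 fold change 1.48, SE 0.71, adjusted p = 0.428), and the log2 fold change was -0.028 within series S40326. Oprd1, not tested after the filter, averaged 16.5 ± 17.1 CPM in GABAergic-like sums, 9 of 12 above 0, and was at 0 in all 12 glutamatergic-like sums. Against a floor of 3 reads over the whole glutamatergic-like group it was at least 146-fold higher, and with no filter beyond 1 count its adjusted p was 0.0244 by edgeR. The fold bound takes reads as independent, but Oprd1 reads came in few nuclei. By nuclei, 0 of 108 glutamatergic-like nuclei allows a share of up to 3.36%, against 8.42% of GABAergic-like nuclei.

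Glial nuclei were set against all neuronal nuclei of the same vectors. Over all genes tested, the fitted log2 change had a median of -1.82 for astrocyte-like and -5.70 for oligodendrocyte-like nuclei (-1.89 and -5.74 with RLE scaling, but -0.31 and -1.01 without the vector block). The fitted values below include that shift and are to be read beside it, unless given relative to the median gene. In astrocyte-like nuclei of 9 vectors, Cnr1 averaged 46.6 ± 63.3 CPM, against 328 ± 205 CPM in neuronal sums, and was lower in 8 of 9 vectors. The 8 oligodendrocyte markers summed to 2051.2 CPM, the 5 endothelial markers to 429.2 CPM, the 6 mural or fibroblast markers to 216.0 CPM and the 11 GABAergic markers to 707.9 CPM in astrocyte-like nuclei, against 205.7, 15.8, 1.2 and 6549.7 CPM in GABAergic-like nuclei. In SPN-like nuclei the same sums were 1353.2, 9.9, 79.2 and 739.6 CPM, and in glutamatergic-like nuclei 160.3, 5.9, 4.6 and 53.4 CPM. The part of these markers in the result was not tested. The log2 fold change of Cnr1 was -4.59 (edgeR, SE 1.59, adjusted p = 0.0480), which is -2.77 relative to the median gene. Faah averaged 3.00 ± 8.83 CPM in astrocyte-like and 115 ± 76.5 CPM in neuronal sums, was lower in 9 of 9 vectors, and had a log2 fold change of -9.90 (edgeR, SE 2.05, adjusted p = 0.00204).

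Mgll went the other way in astrocyte-like nuclei without passing the threshold. It averaged 155 ± 84.9 CPM in astrocyte-like and 73.1 ± 26.6 CPM in neuronal sums and was higher in 8 of 9 vectors (edgeR log2 fold change 1.17, SE 0.72, adjusted p = 0.275). Calls were made on 2 of 4 genes tested, both lower, against 17.6% of 10074 genes tested (13.7% lower). Faah, at 0 in 7 of 9 astrocyte-like sums, passed the filter on low counts mainly through the neuronal sums. The Cnr1 call ended on leaving out any 1 of AiE0390m, DLX2.0, AiE0391h, AiE0445h_3xC2, AiE0450h and AiE0743m_3xC2, with adjusted p between 0.0594 and 0.115 by edgeR, and without the vector block, where its log2 fold change was -2.56 (adjusted p = 0.129 by edgeR). In series S40324 alone neither gene was called, and in series S40326 alone Faah had an adjusted p of 0.0513 by edgeR.

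In oligodendrocyte-like nuclei of 7 vectors, Cnr1 had no read, against 336 ± 179 CPM in neuronal sums, the lowest at 188 CPM. Against a floor of 3 reads over the whole oligodendrocyte-like group, Cnr1 was at least 1601-fold lower (adjusted p = 1.46e-07 by edgeR). That bound holds for this class rule only: Cnr1 averaged 13.1 CPM in oligodendrocyte-like sums when nuclei down to 500 genes were admitted and 70.3 CPM with classes from a marker score, where it was still called lower (adjusted p of 6.86e-07 and 0.00526 by edgeR). The bound also takes reads as independent. By nuclei, 0 of 50 oligodendrocyte-like nuclei allows a share of up to 7.11%, against 50.2% of all neuronal nuclei. Mgll averaged 10.1 ± 26.8 CPM, 6 of 7 sums at 0, and 66.6 ± 33.9 CPM in neuronal sums (edgeR log2 fold change -9.75, SE 2.91, adjusted p = 0.00462). Faah differed less, with 58.7 ± 74.7 CPM in oligodendrocyte-like and 106 ± 76.1 CPM in neuronal sums (edgeR log2 fold change -3.45, SE 2.54, adjusted p = 0.258), which is 2.25 above the median gene. Calls were made on 2 of 3 genes tested, both lower, where 41.6% of 8107 genes tested were called lower, so the share of genes called lower was high throughout the table. Cnr1, at 0 in all 7 oligodendrocyte-like sums, and Mgll, at 0 in 6 of 7, passed the filter on low counts mainly through the neuronal sums. Genes let in this way could hardly be called higher, so the direction of these 2 calls is no separate result. The Mgll call ended without the vector block, where the log2 fold change was -2.93 (adjusted p = 0.399 by edgeR), and within series S40324 and S40326 alone (adjusted p of 0.310 and 0.1997 by edgeR). With nuclei down to 500 genes admitted, 10 vectors entered and Faah (log2 fold change -6.71, adjusted p = 0.0213 by edgeR) and Dagla (log2 fold change -9.69, adjusted p = 0.000112 by edgeR) were called as well.

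**Figure D4:**
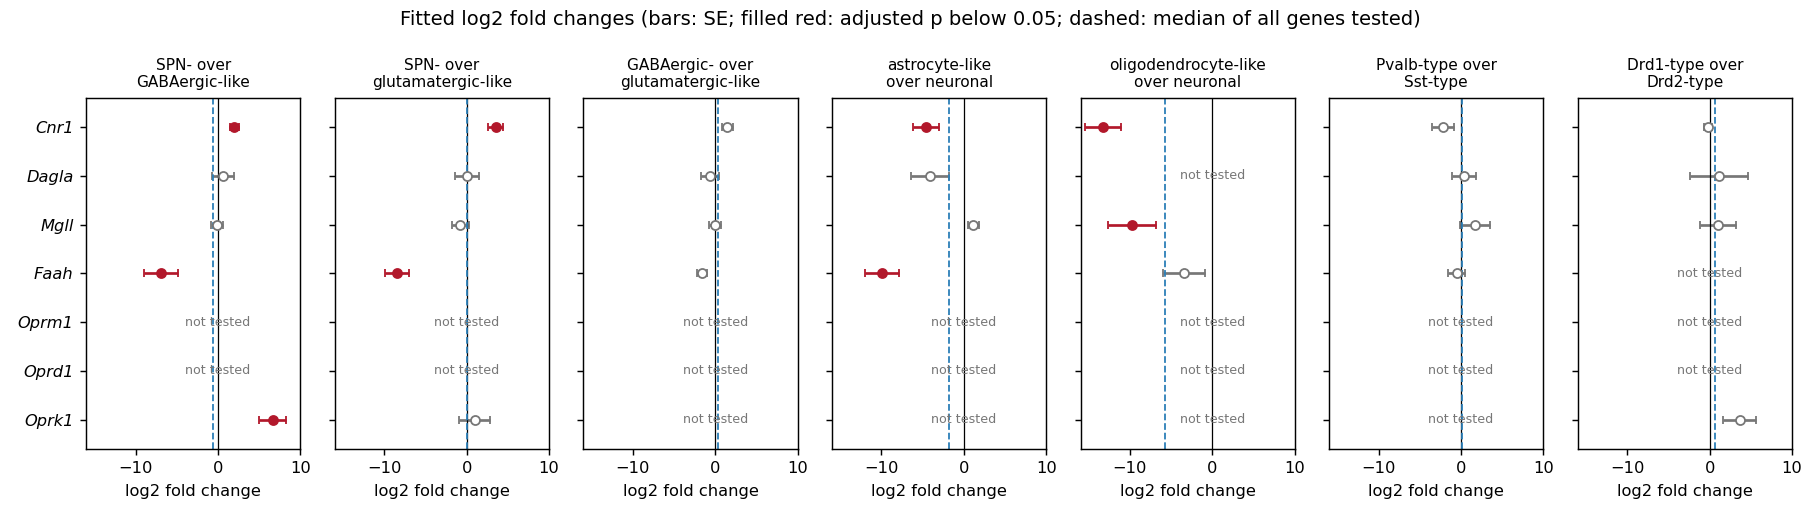
Fitted log2 fold changes of the 7 genes in 7 comparisons, the class named first over the class named second; points are estimates, bars are standard errors, filled red points had an adjusted p below 0.05 and the dashed line is the median of all genes tested. Cnr1 lies right of 0 and Faah left of 0 in both SPN-like comparisons, and both lie left of 0 in the glial comparisons.

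Within the SPN-like class, nuclei were split by reads of the dopamine receptor genes into 81 Drd1-type and 60 Drd2-type nuclei, with 4 holding reads of both kinds and 16 of neither. Cnr1 was high in both types, at 558 ± 476 CPM in Drd1-type (SD, n = 9 vectors) and 758 ± 434 CPM in Drd2-type sums (n = 10), with a read in 72.8% of Drd1-type and 95% of Drd2-type nuclei. Oprk1 was read in 27 of 81 Drd1-type nuclei (33.3%) and 6 of 60 Drd2-type nuclei (10%). Its Drd1-type sums were 0, 14.97, 79.8, 109, 129, 182, 209, 221 and 296 CPM, and its Drd2-type sums ran over 0 to 223 CPM with a median of 1.42 CPM and 5 of 10 at 0. The groups overlapped, since the highest Drd2-type sum lay above 8 of the 9 Drd1-type sums.

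In the 7 vectors with both types, edgeR called none of 4 genes tested, where 0.104% of 6728 genes tested were called, and none had an unadjusted p under 0.05. Oprk1 averaged 127 ± 108 CPM in Drd1-type and 31.7 ± 40.9 CPM in Drd2-type sums and was higher in 5 of 7 vectors (edgeR log2 fold change 3.64, SE 1.99, adjusted p = 1.0), and DESeq2 gave an adjusted p of 0.146 and called none of the 4. Faah reads came from 6 of 81 Drd1-type nuclei and from no Drd2-type nucleus. The opioid peptide gene Penk was the list gene called here: it averaged 323 ± 225 CPM in Drd1-type and 6505 ± 1826 CPM in Drd2-type sums, lower in 7 of 7 vectors (edgeR log2 fold change -4.61, SE 0.37, adjusted p = 1.58e-09). Pdyn, the dynorphin gene, had 124 CPM pooled over Drd1-type nuclei and no read in Drd2-type nuclei.

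Reads of 2 genes in the same nucleus are given beside the share over the type or class, and no test was made. All 57 Drd2-type nuclei with a Cnr1 read also had a Penk read, as had all 60 nuclei of the type. Of the 27 Drd1-type nuclei with an Oprk1 read, 22 had a Cnr1 read (81.5%) and 5 had a Pdyn read (18.5%). Among all 81 nuclei of the type, 59 had Cnr1 (72.8%) and 15 had Pdyn (18.5%). Of the 23 GABAergic-like nuclei with an Oprd1 read, 2 had a Penk read, whose share over the class was 14.7%.

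GABAergic-like nuclei were not uniform for these genes. The cluster led by Vip, Pde11a and Adarb2 (27 nuclei) had 914 CPM of Cnr1 pooled, above the SPN-like class at 589.8 CPM, with a read in 66.7% of its nuclei. Its 4 sums were 239, 598, 1606.5 and 2521 CPM, and the highest came from 3 nuclei of AiE0452h. Mgll was 212 CPM pooled in the same nuclei, with sums of 147, 154, 270 and 291 CPM, against 70.4 to 86.3 CPM in the other 4 GABAergic-like clusters. Faah was low there at 29.95 CPM, against 83.0 to 142 CPM in those clusters.

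The cluster led by Mybpc1, Pde5a and Pvalb (96 nuclei) was at the other end for Cnr1, with 31.2 CPM and a read in 14.6% of nuclei. A cluster led by Sfta3-ps, Lhx8 and Nkx2-1 (44 nuclei) had 319 CPM of Cnr1 and the highest Oprk1 level of the 5 clusters, 29.7 CPM. That Oprk1 level came from 3 nuclei, 1 of which held 45.9% of the reads, and 4 of 6 vector sums were at 0. Oprd1 reads were found in the Pvalb cluster (27.1 CPM, 16.7% of nuclei) and in a cluster led by Lama4, Npas1 and Pdyn (22.2 CPM, 8.54% of 82 nuclei), and in none of the 95 nuclei of the other 3. These clusters were built without the 7 genes, but no test was made between them.

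**Figure D5:**
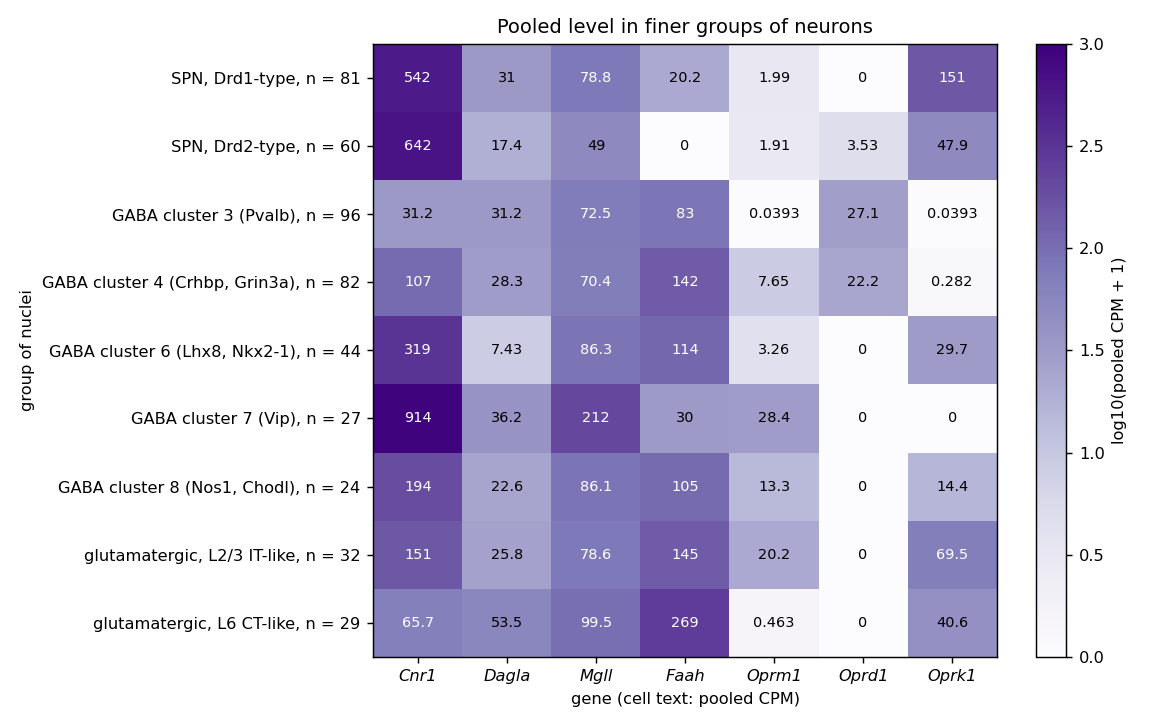
Pooled level of the 7 genes in finer groups of neurons, with the CPM printed in each cell and the colour showing log10(CPM + 1); n is the number of nuclei. Cnr1 runs over 31.2 CPM in the Pvalb cluster to 914 CPM in the Vip-led cluster, and Oprk1 is highest in Drd1-type nuclei at 151 CPM.

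Split by reads of Pvalb and Sst, 98 GABAergic-like nuclei were Pvalb-type and 94 Sst-type. In the 11 vectors with both, edgeR called none of 4 genes tested, where 0.425% of 7298 genes tested were called, and none had an unadjusted p under 0.05. Cnr1 averaged 58.1 ± 92.4 CPM in Pvalb-type and 114 ± 138 CPM in Sst-type sums and was lower in 8 of 11 vectors (edgeR log2 fold change -2.16, SE 1.35, adjusted p = 0.9995). DESeq2 also called none of the 4, and with classes from a marker score the Cnr1 log2 fold change was 0.33. Oprd1 averaged 26.7 ± 38.6 CPM in Pvalb-type and 13.1 ± 19.5 CPM in Sst-type sums and was not tested after the filter.

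Among glutamatergic-like nuclei, 32 were like layer 2/3 intratelencephalic (L2/3 IT) and 29 like layer 6 corticothalamic (L6 CT) neurons. Faah was present in both, at 145 CPM pooled in L2/3 IT-like and 269 CPM in L6 CT-like nuclei, with a read in 68.8% and 75.9% of them. Dagla had 25.8 CPM in L2/3 IT-like and 53.5 CPM in L6 CT-like nuclei. Oprk1 was read in 6 of 32 L2/3 IT-like nuclei, 1 of which held 68.2% of the reads.

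The other genes of these pathways were followed as 46 genes in 3 lists: 18 of endocannabinoid synthesis, breakdown, transport and receptors, 15 of opioid peptides, peptide processing and receptor regulation, and 13 of the G proteins, channels and adenylyl cyclases below Gi/o-coupled receptors. In SPN-like against GABAergic-like nuclei, 33 were tested, 5 rose and 8 fell, with a median log2 fold change of -1.26, where the median of all genes was -0.62. Of all 9210 genes tested, 3.19% were called higher and 5.34% lower. Penk, the enkephalin precursor, averaged 3122 ± 1851 CPM in SPN-like and 119 ± 103 CPM in GABAergic-like sums. Rgs4, a regulator of G protein signalling, averaged 674 ± 245 CPM in SPN-like and 103 ± 61.1 CPM in GABAergic-like sums, and Plcb1, a phospholipase C that acts in making the lipid precursor of 2-arachidonoylglycerol, 668 ± 175 CPM and 210 ± 101 CPM in the same order. All 3 were higher in 12 of 12 vectors.

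Grk3, a kinase that phosphorylates active receptors, and Plcb4, another phospholipase C, were called lower in SPN-like nuclei. Grk3 averaged 7.37 ± 17.5 CPM in SPN-like and 368 ± 134 CPM in GABAergic-like sums, and Plcb4 4.66 ± 16.1 CPM and 132 ± 103 CPM. Adcy8, a calcium-stimulated adenylyl cyclase, had no read in the 12 SPN-like sums and 116 ± 71.5 CPM in GABAergic-like sums. By list, 1 of 10 endocannabinoid genes tested rose and 2 fell, 3 of 11 opioid genes rose and 2 fell, and 1 of 12 effector genes rose and 4 fell. The shares over all genes tested were 3.19% higher and 5.34% lower.

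Against glutamatergic-like nuclei, 31 of the 46 were tested, 3 rose and 6 fell in SPN-like nuclei, with a median log2 fold change of -0.75, where that of all genes was 0.04. Of all 7595 genes tested, 1.66% were called higher and 1.42% lower. Penk averaged 3055 ± 2098 CPM in SPN-like and 73.8 ± 81.3 CPM in glutamatergic-like sums. Adcy5, the main adenylyl cyclase of striatal projection neurons, averaged 751 ± 325 CPM in SPN-like and 28.1 ± 34.2 CPM in glutamatergic-like sums. Both were higher in 9 of 9 vectors. Kcnj6, a subunit of the potassium channels that Gi/o-coupled receptors open, averaged 0.148 ± 0.256 CPM in SPN-like and 137 ± 117 CPM in glutamatergic-like sums, and Kcnj3, another subunit, 7.03 ± 13.95 CPM and 159 ± 146 CPM. Grk3 averaged 4.09 ± 12.3 CPM in SPN-like and 222 ± 128 CPM in glutamatergic-like sums, and Plcb4 6.21 ± 18.6 CPM and 139 ± 97.2 CPM.

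In GABAergic-like against glutamatergic-like nuclei, 1 of 35 was called, which is near the 3.16% called over all genes tested. Pcsk2, a convertase that cuts peptide precursors, averaged 56.9 ± 32.2 CPM in GABAergic-like and 389 ± 198 CPM in glutamatergic-like sums and fell in 11 of 12 vectors. In astrocyte-like against neuronal nuclei, 37 were tested, 3 rose and 9 fell (median log2 fold change -1.59, against -1.82 over all genes). Of all 10074 genes tested there, 17.6% were called, and 13.7% were called lower. Gnao1, the alpha subunit of Go, rose, with 1285 ± 209 CPM in astrocyte-like and 108 ± 44.0 CPM in neuronal sums, as did Cpe, a carboxypeptidase of peptide processing, with 3701 ± 1677 CPM and 860 ± 367 CPM. Cacna1a, a presynaptic calcium channel subunit, averaged 4.52 ± 13.4 CPM in astrocyte-like and 160 ± 69.9 CPM in neuronal sums, Kcnj9, another potassium channel subunit, 0.118 ± 0.354 CPM and 64.3 ± 43.6 CPM, Adcy8 2.52 ± 7.55 CPM and 81.5 ± 54.1 CPM, and Cacna1b, another presynaptic calcium channel subunit, 5.21 ± 11.7 CPM and 130 ± 46.4 CPM. Those 4 fell in 9 of 9 vectors.

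In oligodendrocyte-like against neuronal nuclei, 26 were tested, none rose and 14 fell, with a median of -5.34 that lay near the -5.70 of all genes. Of all 8107 genes tested, 41.6% were called lower. Cacna1b, Arrb1 (a beta-arrestin), Rgs7 (a regulator of G protein signalling) and Kcnj3 had no read in the 7 oligodendrocyte-like sums, against 121 ± 49.9, 118 ± 40.8, 90.1 ± 33.2 and 43.4 ± 41.9 CPM in neuronal sums. Plcb1 averaged 11.9 ± 31.4 CPM in oligodendrocyte-like and 319.8 ± 131 CPM in neuronal sums, and Cacna1a 5.03 ± 13.3 CPM and 190 ± 74.0 CPM. Of the genes named here, Penk, Plcb1, Plcb4, Pcsk2, Adcy8, Gnao1, Kcnj6, Kcnj9 and Cacna1a overlap another gene by span. Reads in a shared stretch cannot be assigned by strand. Cnr2, the CB2 receptor gene, had reads in 2 of the 542 neuronal nuclei, and Trpv1 and Gpr55, both proposed as further cannabinoid receptors, had none.

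Levels by vector label, over all 40 nuclei of a vector, are 1 pooled value each and were not tested against each other. Cnr1 ran over 84.2 CPM under AiE0391h to 485 CPM under AiE0450h (exact Poisson 95% interval 472 to 498 CPM), with a median of 173 CPM, and no vector was at 0. AiE0450h held 17 SPN-like nuclei of 40, but 1 nucleus gave 25.5% of its Cnr1 reads. Faah ran over 1.32 CPM under AiE0391h to 326 CPM under hSyn1 (314 to 337 CPM), whose nuclei included 27 glutamatergic-like and no SPN-like ones. Of the hSyn1 reads of Faah, 1 nucleus gave 34.9%. Oprk1 was highest under AiE0387m, at 103 CPM (97.0 to 110 CPM) with 25 SPN-like nuclei, and was at 0 under 5 vectors. AiE0779m came next for Oprk1, with 92.7 CPM (87.4 to 98.2 CPM) and 21 SPN-like nuclei. A single nucleus gave 29.1% of the Oprk1 reads under AiE0387m and 23.6% under AiE0779m.

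Mgll was highest under AiE0390m, at 210.5 CPM (202 to 219 CPM) with 25 astrocyte-like nuclei, and lowest under AiE0410m at 5.33 CPM. Under AiE0390m, 1 nucleus gave 33.5% of the Mgll reads. Dagla ran over 0.395 CPM under AiE0410m to 45.8 CPM under hSyn1. Oprd1 was at 0 under 8 vectors and highest under AiE0401h at 32.9 CPM, from 2 nuclei. Oprm1 was at 0 under 7 vectors and highest under AiE0447h at 15.1 CPM, where 1 nucleus gave 91.0% of the reads. The class mix differed between vectors, and the parts of vector and class in these values were not tested. Levels did not always follow the mix. Oprk1 was at 0 under AiE0743m_3xC2, with 12 SPN-like nuclei, but 44.4 CPM (from 2 nuclei) under AiE0447h, with 3 SPN-like nuclei.

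The 60 sums of a vector and class are not independent, since classes of a vector share its label, and they can differ in library series and depth. Among 10591 genes with a mean of at least 10 CPM there, those most like each member had the highest Pearson's r of log2(CPM + 1). For Cnr1 they were Plcl2 (r = 0.825), Itpr1 (r = 0.813) and Lrrc7 (r = 0.799). For Mgll they included Adgrl1 (r = 0.831) and Nebl (r = 0.794). For Faah they were Vwa5b2 (r = 0.759), Sidt1 (r = 0.747) and Mapk11 (r = 0.734), and for Dagla Syt7 (r = 0.704), Cyp46a1 (r = 0.680) and Smurf1 (r = 0.665). The opioid receptors had weaker or sparser likenesses: Oprk1, with reads in 24 of the 60 sums, was most like Junb (r = 0.651), Gm10115 (r = 0.645) and Slc24a4 (r = 0.641). Oprd1, with reads in 12 sums, was like Mybpc1 (r = 0.780) and Rimkla (r = 0.704), and Oprm1, with reads in 19, like Prdm2 (r = 0.495), Trp53rka (r = 0.488) and 1190002N15Rik (r = 0.448).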

How the data were processed

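Single YFP+ nuclei were profiled by SMART-Seq v4, and the authors deposited a table of raw read counts for 32285 genes and 2501 nuclei. The 800 nuclei with labels were used and the 1701 other columns were not. Reads were aligned with STAR 2.7.2a to mm10, per the submitters' processing notes; annotation, counting rule and use of intronic reads: not given in the sources used here. Of the gene IDs, 32158 had a symbol in GENCODE M21. Depth ran over 70 to 901264 counts per nucleus with a median of 260170.5.

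The members and lists were chosen with earlier results of these data known. Nuclei with at least 1000 genes were clustered with scanpy 1.11.5 and leidenalg 0.10.2 (2000 variable genes, 30 principal components, 15 neighbours, resolution 1) without the 53 list genes, and named from marker genes. The rules for Drd1-type, Drd2-type, Pvalb-type and Sst-type nuclei were chosen after a first look at the clusters. No doublet caller was run. Counts were summed per vector and class with at least 3 nuclei, and no 2 nuclei had identical counts.

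Sums were compared with edgeR 4.0.16 in R 4.3.3 (quasi-likelihood test, TMM, its filter on low counts, Benjamini-Hochberg over all genes tested, threshold 0.05). The vector was a block because both sums of a pair share the vector label. Nuclei of a vector could come from more than 1 library series, and the series was not in the model. Alternatives were RLE scaling, no filter beyond 1 count, DESeq2 1.42.0, no replicate block, 1 library series at a time, a minimum of 500 genes, classes from a marker score, thinning to 150000 counts, leaving out runs of 8 title numbers that hold an SPN-like nucleus (GABAergic-like against glutamatergic-like only), and leaving out each vector. Series S40324 alone could be fitted for the glial comparisons only. The fit was also run on simulated data for SPN-like against GABAergic-like sums only. Those data had the same dispersion for all genes and no vector effect, so the run does not speak to calls that rest on sums at 0.

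Text names all 7 members, of the other list genes at most the 6 with the smallest adjusted p among those called in a comparison, and for each member the 3 genes outside the lists with the highest Pearson r. For Mgll and Oprd1, 1 of these 3 is not reported here. Intervals are Clopper-Pearson for shares and exact Poisson for CPM, at 95%. The limit given for a count of 0 is 3 counts of the total. Figures were drawn with matplotlib 3.10.9.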

Additional observations from a re-analysis of the deposited data

Results flagged for a closer look

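In groups of 4 to 10 sums, 16 values lay far from the others of their group by Dixon's criterion, among 37 gene and group combinations tested. The criterion flags about 1 in 20 by chance only when values are normally spread. Many of these sums were at 0, so that rate does not apply here and the count is no measure of excess. In 7 of the 16 every other sum was at 0. Most come from sums of few nuclei.

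In the astrocyte-like nuclei of AiE0401h (4 nuclei), Faah had 26.5 CPM (next 0.473 CPM), Oprm1 4.25 CPM and Oprk1 27.6 CPM. In the oligodendrocyte-like nuclei of AiE0682h, Mgll had 71.0 CPM. Drd1-type nuclei of AiE0445h_3xC2 had 131 CPM of Faah (next 61.9 CPM), and those of hI56i had 20.6 CPM of Oprm1 (next 1.93 CPM). Drd2-type nuclei of AiE0445h_3xC2 (3 nuclei) had 1855 CPM of Cnr1 (next 928 CPM) and 182 CPM of Mgll (next 75.4 CPM). Other Drd2-type sums were 5.03 CPM of Oprm1 in AiE0450h, 16.4 CPM of Oprd1 in AiE0387m and 223 CPM of Oprk1 in AiE0391h (next 99.0 CPM). The Vip-led cluster of AiE0390m had 45.9 CPM of Faah. L2/3 IT-like nuclei of AiE0447h had 167 CPM of Oprm1 (next 7.78 CPM) and 541 CPM of Oprk1 (next 24.8 CPM). L6 CT-like nuclei of AiE0682h had 324 CPM of Cnr1 (next 81.3 CPM) and 254 CPM of Oprk1.

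The 102 nuclei with fewer than 1000 genes entered no comparison, yet they held reads of 3 members above the 0.122 CPM that 3 reads are worth there. Cnr1 had 61.4 CPM from 4 nuclei, Mgll 47.4 CPM from 8 and Dagla 3.37 CPM from 1.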

How the results depend on the processing

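The direction of each of the 9 member calls was the same under all alternatives run. Without the replicate block, which gives up the pairing by vector, the members called numbered 1 in SPN-like against GABAergic-like (3 with the block), 1 in the astrocyte-like and 1 in the oligodendrocyte-like comparison (2 each with the block), 2 in SPN-like against glutamatergic-like, and 0 in GABAergic-like against glutamatergic-like and in both finer comparisons, as with the block. The marker score gave 1 call in SPN-like against GABAergic-like. Series S40326 alone gave 0 in SPN-like against glutamatergic-like and 1 in the astrocyte-like comparison; series S40324 gave 0 for astrocyte-like and 1 for oligodendrocyte-like nuclei. With no filter, members called were 1 in GABAergic-like against glutamatergic-like and 5 in oligodendrocyte-like nuclei; DESeq2 gave 1 in the first of these, and a minimum of 500 genes 4 in the second. Leaving out 1 vector gave 1 to 2 calls in SPN-like against glutamatergic-like and 1 to 2 in astrocyte-like nuclei. Cnr1 in oligodendrocyte-like nuclei, 0 as reported, was 13.1 CPM at a minimum of 500 genes and 70.3 CPM under the marker score, where Oprk1 was 14.05 CPM. The cause was not tested.

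The log2 fold changes that turned direction all belong to genes not called. In SPN-like against GABAergic-like, Dagla was -0.15 after thinning, and Mgll ran over -0.40 to 0.22 on leaving out vectors. In SPN-like against glutamatergic-like, Dagla was -0.056 with RLE, -0.015 with no filter, -0.052 with DESeq2, -0.61 without the block, -1.38 in S40326, -1.14 after thinning and -0.54 to 0.62 on leaving out vectors; Oprk1 was -0.54 without the block and -0.33 under the marker score. In GABAergic-like against glutamatergic-like, Cnr1 was -0.028 in S40326, Dagla 0.39 without runs holding SPN-like nuclei, and Mgll 0.037 with no filter, 0.068 without the block, 0.22 under the marker score, 0.68 without those runs and -0.30 to 0.29 on leaving out vectors. In Pvalb-type against Sst-type, Cnr1 was 0.33, Dagla -1.40 and Mgll -0.31 under the marker score, Dagla -0.26 and Faah 0.13 in S40326, and Dagla -0.17 at 500 genes and -0.016 to 0.82 on leaving out vectors. In Drd1-type against Drd2-type, Cnr1 was 0.0545 without the block, 0.13 in S40326 and -0.47 to 0.27 on leaving out vectors, Dagla -0.26 at 500 genes, -1.50 after thinning and -0.27 to 3.31 on leaving out vectors, and Mgll -0.16 in S40326.

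All-gene calls moved by over 1.5 times from 786 in SPN-like against GABAergic-like to 1413 (no filter), 2779 (DESeq2) and 382 (S40326); from 234 in SPN-like against glutamatergic-like to 400, 1066 and 54 in the same order; and from 283 in GABAergic-like against glutamatergic-like to 484, 1529, 98 and, without runs holding SPN-like nuclei, 41. From 1771 for astrocyte-like and 3537 for oligodendrocyte-like nuclei they moved to 5126 and 5818 (DESeq2), 802 and 1078 (no block), 148 and 113 (S40324), and 531 and 351 (S40326). From 31 in Pvalb-type against Sst-type they moved to 116 (no filter), 591 (DESeq2), 13 (no block), 9 (S40326) 15 (marker score) and 16 (without AiE0140h), and from 7 in Drd1-type against Drd2-type to 13 (no filter) and 277 (DESeq2). Shares of Oprm1, Oprd1 and Oprk1 are limited by the number of nuclei.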
